A study of Homo sapiens with 8 samples.

Results

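The named long noncoding and uncharacterised loci were the transcript clusters whose gene symbol is an LINC number, a LOC number, the name of a sequenced genomic clone (RP11-, CTA-, CTD-, AC or AL names) or an antisense name ending in -AS with a digit. A transcript cluster is the array's unit for 1 gene or 1 stretch of transcribed sequence. The rule took 64 of the 491 clusters in the authors' deposited list, which stand for 54 of its 305 gene symbols, and LINC01419 was left out by the rule. The list holds clusters that changed more than 2-fold between the groups (a difference of about 1 or more on the log2 scale) and the study states a p-value threshold for it as well, so the members were chosen by their names and selected on the measured difference between the groups. Direction and size are given as a description, with no test.

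RNA came from A375, a human melanoma cell line, in 2 groups of 4 arrays each. The shPLK1 cells carry a doxycycline-inducible lentiviral shRNA against PLK1, a kinase of mitosis, and the shNS cells carry the matching nonsense shRNA. Both groups received doxycycline for 48 h, and their total RNA was hybridised to Affymetrix Human Transcriptome Arrays. The question was which transcripts differ once PLK1 is knocked down. PLK1 itself has no cluster in the list, so its RNA either did not pass the list's thresholds or was not summarised there. The list thus shows no 2-fold loss of PLK1 RNA, and the knockdown is unchecked here. The Methods describe such lines as puromycin-selected pools but for the arrays name only cells created earlier, so whether these were pools or clones is not stated.

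Long noncoding RNAs are transcripts made and often spliced like messenger RNA but with no long reading frame. Many are kept in the nucleus, are made at low levels and in few cell types, and are named only by number or by the clone in which they were found. Some overlap a coding gene on the opposite strand (antisense RNAs) or start back to back with one (divergent transcripts), and for a few a function is known, in p53 control, in mitosis or in chromatin. Pseudogenes and genes that had no name when the array was designed carry the same kinds of symbol.

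For each cluster the list gives 1 average per group on the log2 scale and no value per array, so the spread of a member between replicates is unknown. The column set against shNS carries a heading that the sources used here do not explain, and it was taken as shPLK1, so every direction below rests on that reading. Of the 54 symbols, 26 were found in the RefSeq annotation, 15 of them under a newer name, and 28 were not. RefSeq holds 22 of the 26 as long noncoding RNA, 2 as pseudogenes and 2 as protein-coding genes. The list sorts clusters into the array's classes Coding and NonCoding, and 50 of the 64 clusters stand in class Coding, so this class does not separate coding from noncoding genes here.

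Promoter windows were available for 14 of the 26 matched loci. The 4 printed here belong to 4 of the 5 loci that have another gene of the list as their nearest RefSeq neighbour, and are shown because locus and neighbour lay on the same side. Each runs 5′ to 3′ on the locus's own strand over 300 bases, from 250 before to 50 after the RefSeq start, in GRCh38.p14, with TATAAA or CCAAT on either strand in capitals. LINC00622 (chr1:119599242-119599541, minus strand), beside ZNF697:
LINC00622: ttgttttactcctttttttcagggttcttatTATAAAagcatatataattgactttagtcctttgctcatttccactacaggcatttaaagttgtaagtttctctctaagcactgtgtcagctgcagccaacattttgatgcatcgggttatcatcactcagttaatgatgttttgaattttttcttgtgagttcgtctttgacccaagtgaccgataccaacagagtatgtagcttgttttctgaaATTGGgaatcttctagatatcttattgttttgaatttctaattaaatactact
The window of LOC101929745 (now LINC02119, chr5:38148230-38148529, plus strand), whose nearest listed gene is the distant GDNF, held none of the motifs:
LINC02119: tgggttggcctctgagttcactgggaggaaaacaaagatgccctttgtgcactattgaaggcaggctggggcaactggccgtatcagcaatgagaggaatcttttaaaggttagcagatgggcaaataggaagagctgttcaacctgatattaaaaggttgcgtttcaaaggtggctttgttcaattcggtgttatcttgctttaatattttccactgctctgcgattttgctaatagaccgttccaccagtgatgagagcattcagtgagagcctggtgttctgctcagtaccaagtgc
The window of MEOX2-AS1 (now LINC02587, chr7:15688128-15688427, plus strand), beside MEOX2, held none either:
LINC02587: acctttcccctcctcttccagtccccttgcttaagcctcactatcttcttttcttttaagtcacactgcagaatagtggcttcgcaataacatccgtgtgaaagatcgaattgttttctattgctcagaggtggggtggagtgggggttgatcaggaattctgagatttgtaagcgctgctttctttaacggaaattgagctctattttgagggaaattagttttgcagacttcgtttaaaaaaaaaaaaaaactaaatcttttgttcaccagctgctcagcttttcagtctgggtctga
The window of LOC101928555 (now LINC01537, chr11:72570406-72570705, plus strand) lies beside PDE2A:
LINC01537: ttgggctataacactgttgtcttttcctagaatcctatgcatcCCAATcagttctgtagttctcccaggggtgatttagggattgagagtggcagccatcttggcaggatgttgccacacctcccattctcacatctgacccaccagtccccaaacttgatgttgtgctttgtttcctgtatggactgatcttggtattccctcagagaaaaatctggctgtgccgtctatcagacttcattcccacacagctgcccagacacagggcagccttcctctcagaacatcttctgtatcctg

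Both strands were searched. TATAAA stood at -219 and ATTGG, the reverse complement of CCAAT, at -3 from the start of LINC00622. CCAAT stood at -207 in LINC01537. The 4 windows had a GC content of 33.3%, 45.7%, 41% and 48.7%, in the order printed. Over the 14 windows the median was 48.7%, against 58.7% over all 35116 RefSeq windows of this length. TATAAA was in 3 of the 14 windows and in 11.5% of all windows, CCAAT in 6 of the 14 and in 34.6% of all, and the E-box CACGTG in 0 of the 14 and in 7.3% of all. The AP-1 motif TGANTCA was in the windows of CLDN10-AS1, LINC01363, LINC00460 and LINC00704 (4 of 14) and in 7.7% of all windows. A match of letters is a description and not a bound site.

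Of the 64 clusters, 23 had a higher and 41 a lower average in shPLK1 than in shNS, which is 35.9% and 64.1%. In the whole list 37.7% of clusters were higher and 62.3% lower, so the members split between the directions much as the list does. By symbol, 19 were higher and 35 lower. The difference of averages (shPLK1 minus shNS, log2) had a median of -1.18 over the members, against -1.12 over the whole list. The lower members had a median difference of -1.71 (range -1.01 to -5.09) and the higher members one of 1.18 (range 1.01 to 1.73), against -1.47 and 1.24 in the list. At least 4-fold differences were found in 15 of the 41 lower members and in 0 of the 23 higher ones, against 80 of 306 and 9 of 185 clusters in the list.

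**Figure D1:**
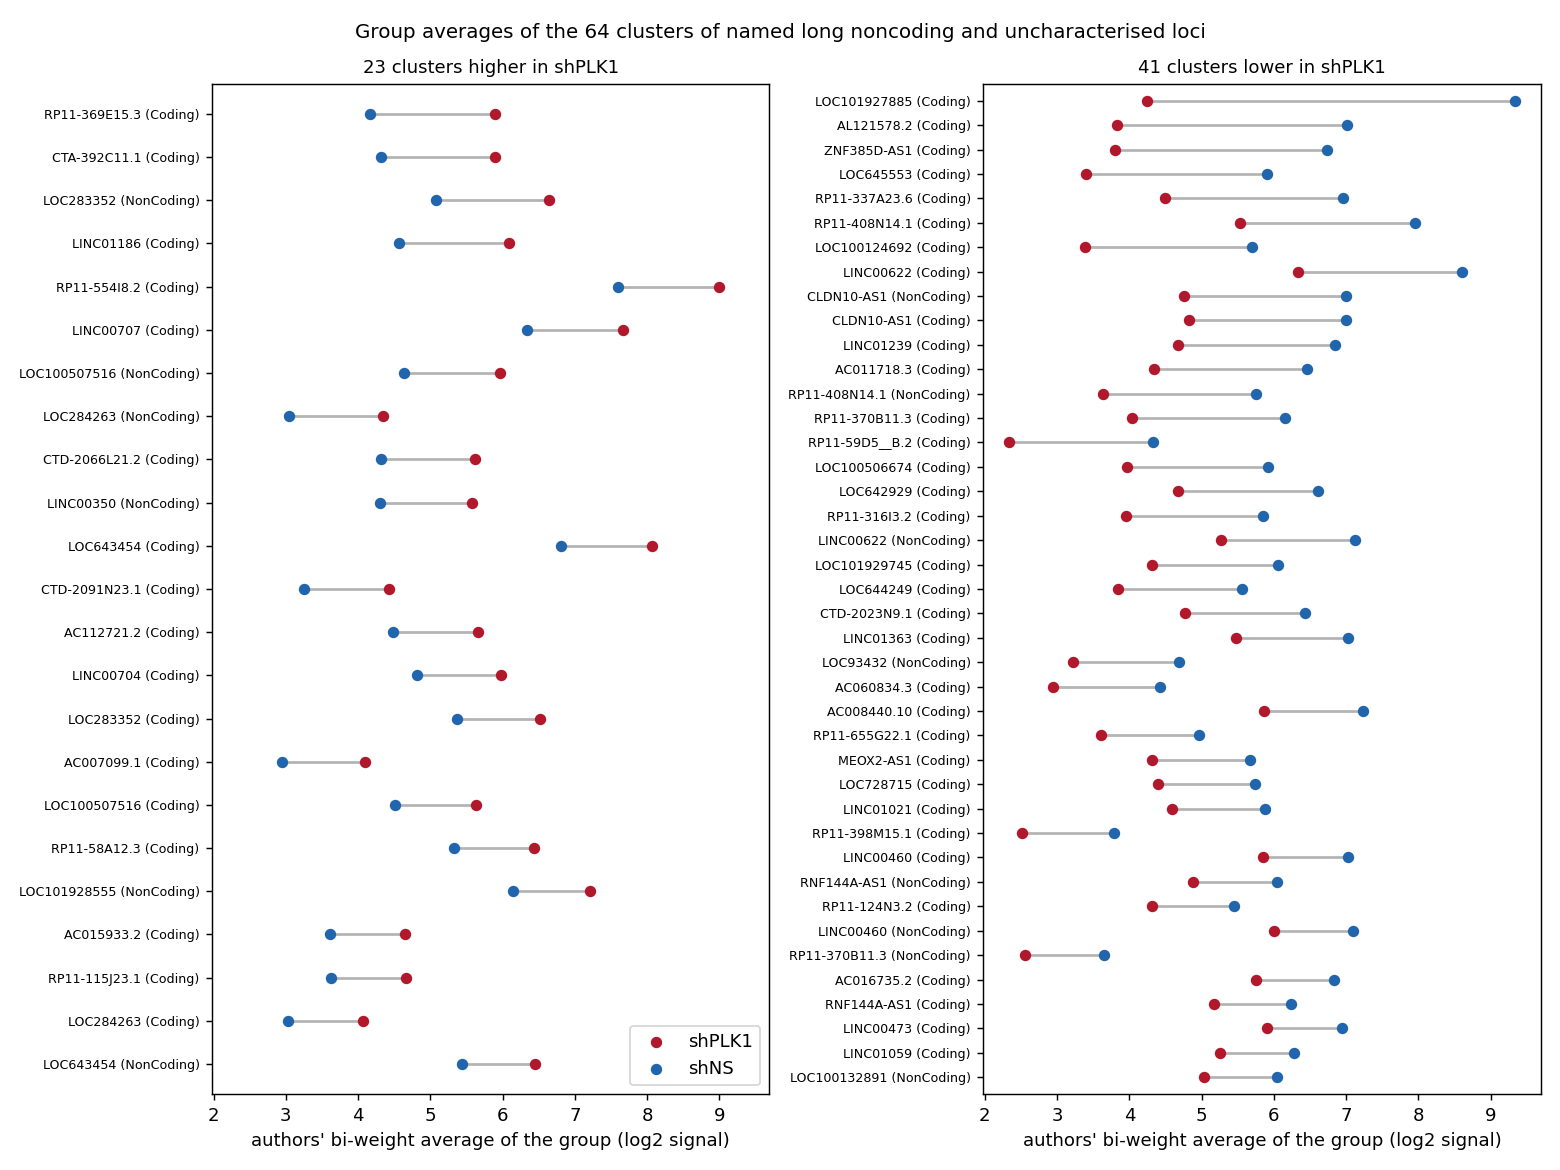
Authors' average of each group (log2 signal, x axis) for the 64 clusters, shPLK1 in red and shNS in blue, joined by a line and sorted by difference, with the array's class in brackets. The lines of the 23 higher clusters span 1.01 to 1.73, and the longest line among the lower ones is that of LOC101927885 (4.25 in shPLK1, 9.34 in shNS).

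Signal levels of different clusters come from different probes and do not rank transcripts. They are given for the place of the members in the array's signal range. The higher of the 2 group averages had a median of 6.06 over the members, against 7.30 over the other listed clusters with a symbol and 5.89 over listed clusters without one. In 20 of 64 members the lower group average was under 4, against 109 of 491 clusters in the list. It was under 4 in 45 of 308 other clusters with a symbol and in 44 of 119 without one. As a mark of that level, 30.5% of all exon probe sets had their mean over all arrays under 4, which is another measure. Over the array's own exon probe sets of a similar mean level (within 0.25, 24590 to 41571 probe sets each), the median SD within a group was 0.16 to 0.30, and the members' differences were 3.48 to 26.0 times that SD. That SD is of single probe sets, not of clusters, and members had to differ to be listed.

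LOC101927885, an uncharacterised locus on chromosome 5, stood farthest from equality, with an average of 4.25 in shPLK1 and 9.34 in shNS, 34.1-fold lower. AL121578.2 on chromosome X averaged 3.83 in shPLK1 and 7.01 in shNS, 9.06-fold lower. ZNF385D-AS1, named as antisense to a zinc finger gene, averaged 3.80 in shPLK1 and 6.74 in shNS, 7.67-fold lower. LOC645553, now IGFL2-AS1 and antisense by name to a gene of the IGF-like family, averaged 3.40 in shPLK1 and 5.91 in shNS, 5.70-fold lower. All 4 were near or under 4 in shPLK1, and the effect of the array's background on their fold sizes was not tested.

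Chromosome 9 held the largest group of members, with 8 lower clusters and 1 higher. RP11-337A23.6 averaged 4.50 in shPLK1 and 6.96 in shNS, and LINC01239 averaged 4.67 in shPLK1 and 6.84 in shNS. RP11-370B11.3 averaged 4.04 in shPLK1 and 6.16 in shNS in its class Coding cluster. The class Coding clusters of these 3 loci stand close to each other in the array's numbering. RP11-408N14.1 averaged 5.53 in shPLK1 and 7.96 in shNS in its class Coding cluster. LOC642929, a transcribed pseudogene, averaged 4.67 in shPLK1 and 6.61 in shNS, and LOC644249 averaged 3.85 in shPLK1 and 5.56 in shNS. The higher member was RP11-58A12.3, with 6.43 in shPLK1 and 5.33 in shNS.

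On chromosome 7 all 4 members were lower, as were 12 of the 18 other listed clusters there. LOC100124692, described in the list as a maltase-glucoamylase pseudogene, averaged 3.39 in shPLK1 and 5.70 in shNS. LOC93432, now MGAM2 and a protein-coding gene of the same starch-digesting enzyme family, averaged 3.22 in shPLK1 and 4.69 in shNS. AC060834.3 averaged 2.95 in shPLK1 and 4.42 in shNS. On chromosome 22, AC011718.3 averaged 4.34 in shPLK1 and 6.46 in shNS, the only member there.

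The members named as antisense by symbol came to 6 clusters of 4 symbols, with 0 higher and 6 lower. CLDN10-AS1, named for a claudin of tight junctions, averaged 4.83 in shPLK1 and 7.0 in shNS in 1 cluster and 4.75 in shPLK1 and 7.0 in shNS in the other. RNF144A-AS1, now GRASLND and known from the cartilage formation of human stem cells, averaged 5.17 in shPLK1 and 6.24 in shNS in its class Coding cluster. MEOX2-AS1 averaged 4.31 in shPLK1 and 5.67 in shNS. Others are antisense by the list's description. CTD-2023N9.1, antisense to the actin-like gene ACTBL2, averaged 4.77 in shPLK1 and 6.43 in shNS. LINC01363, described as antisense to the transcription factor gene POU2F1, averaged 5.48 in shPLK1 and 7.03 in shNS. In RefSeq LINC01363 overlaps no gene, and POU2F1 is the nearest coding gene after it. AC015933.2, antisense to CDH2, the gene of N-cadherin, averaged 4.65 in shPLK1 and 3.61 in shNS, and AC007099.1, antisense to EVA1A, averaged 4.10 in shPLK1 and 2.95 in shNS. Of the 8 partner genes of these loci, MEOX2 alone has a cluster in the list, and the others, CDH2 among them, either stayed under its thresholds or were not summarised there.

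A few members have a known role. LINC01021, now PURPL, is induced by p53 and holds p53 levels down, and it averaged 4.59 in shPLK1 and 5.88 in shNS. LINC00704, now MANCR, is known as a mitotically associated long noncoding RNA, and it averaged 5.98 in shPLK1 and 4.81 in shNS. LINC00473, a cyclic AMP-responsive RNA of primates, averaged 5.90 in shPLK1 and 6.95 in shNS. LINC00460, studied in several carcinomas, averaged 5.85 in shPLK1 and 7.03 in shNS in its class Coding cluster. Of a list of 61 long noncoding RNAs often studied in melanoma or other cancers, LINC00473 alone was in the table. The others were either not measured as a cluster with that symbol or did not pass its thresholds, which cannot be told apart here.

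The higher members were led by loci on chromosome 8. RP11-369E15.3 averaged 5.90 in shPLK1 and 4.17 in shNS, 3.32-fold higher, and CTA-392C11.1 averaged 5.90 in shPLK1 and 4.31 in shNS, 3.01-fold higher. LOC100507516, now LINC02984, averaged 5.96 in shPLK1 and 4.63 in shNS in its class NonCoding cluster. Of the 5 members on this chromosome 4 were higher, against 8 of the 18 other listed clusters. The lower one was LOC100132891 (now MSC-AS1), with 5.04 in shPLK1 and 6.05 in shNS. On chromosome X, LINC01186 averaged 6.09 in shPLK1 and 4.57 in shNS.

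All 3 members on chromosome 10 were higher, as were 10 of the 15 other listed clusters there. RP11-554I8.2 averaged 8.99 in shPLK1 and 7.59 in shNS. LINC00707, whose cluster has the next number on the array, averaged 7.67 in shPLK1 and 6.34 in shNS, and LINC00704 is given above. On chromosome 12, LOC283352, now TMEM132D-AS1, averaged 6.64 in shPLK1 and 5.08 in shNS in its class NonCoding cluster. LINC00350, now TPTE2-AS1, averaged 5.58 in shPLK1 and 4.30 in shNS on chromosome 13, where the other 4 members, the clusters of CLDN10-AS1 and LINC00460, were lower. On chromosome 5, CTD-2066L21.2 averaged 5.62 in shPLK1 and 4.32 in shNS, and CTD-2091N23.1 averaged 4.43 in shPLK1 and 3.25 in shNS. AC112721.2 on chromosome 2 averaged 5.66 in shPLK1 and 4.48 in shNS.

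Several further members were lower in shPLK1. LOC100506674, now MRPS30-DT and a transcript divergent from a gene of the mitochondrial ribosome, averaged 3.97 in shPLK1 and 5.92 in shNS. RP11-59D5__B.2 on chromosome 6 averaged 2.33 in shPLK1 and 4.33 in shNS. AC008440.10 on chromosome 19 averaged 5.87 in shPLK1 and 7.23 in shNS, and AC016735.2 on chromosome 2 averaged 5.76 in shPLK1 and 6.83 in shNS. LOC728715, RP11-655G22.1, RP11-124N3.2 and RP11-398M15.1 had differences of -1.34, -1.36, -1.13 and -1.28, in that order.

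By kind of name, 4 of 13 clusters of LINC symbols, 9 of 19 of LOC symbols, 10 of 26 of clone names and 0 of 6 of antisense symbols were higher, against 37.7% of the whole list. The kinds follow the list's own symbols. LOC283352 and LINC00350, both higher, and LOC645553 and LOC100132891, both lower, have antisense names in RefSeq but count here under LOC and LINC. MEOX2-AS1 and RNF144A-AS1, both lower, count as antisense but have other names in RefSeq. These counts are of a selected list and were not compared by a test. The members nearest to the 2-fold limit were LOC643454, now the pseudogene AP3S1P2, with 6.45 in shPLK1 and 5.44 in shNS in its class NonCoding cluster, LOC284263, with 4.06 in shPLK1 and 3.03 in shNS in its class Coding cluster, and RP11-115J23.1, with 4.66 in shPLK1 and 3.62 in shNS, which ties with AC015933.2 at a difference of 1.04. On the lower side they were LOC100132891 and LINC00473, given above, and LINC01059, which RefSeq assigns to the protein-coding gene GRAMD1B, with 5.25 in shPLK1 and 6.28 in shNS. No locus inside the limit is listed, so none can be set beside them.

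For 10 symbols the list holds 2 clusters, 1 in each class, and in all 10 both clusters lay on the same side (4 higher, 6 lower). The differences of the 2 clusters were 0.08 to 1.03 apart, with a median of 0.26. LINC00460 was among the closest, with -1.18 in class Coding and -1.10 in class NonCoding, where it averaged 6.00 in shPLK1 and 7.10 in shNS. RP11-370B11.3 was the farthest apart, with -2.12 in class Coding and -1.09 in class NonCoding, where it averaged 2.56 in shPLK1 and 3.65 in shNS. LINC00622 averaged 6.33 in shPLK1 and 8.61 in shNS in class Coding, and 5.27 in shPLK1 and 7.12 in shNS in class NonCoding. LOC643454 averaged 8.07 in shPLK1 and 6.81 in shNS in class Coding. RP11-408N14.1 averaged 3.64 in shPLK1 and 5.76 in shNS in class NonCoding. RNF144A-AS1 averaged 4.88 in shPLK1 and 6.05 in shNS in class NonCoding. LOC283352 averaged 6.52 in shPLK1 and 5.37 in shNS in class Coding, and LOC100507516 averaged 5.63 in shPLK1 and 4.51 in shNS in class Coding. Clusters of 1 symbol share RNA samples and may share probes, and both had to pass 2-fold, so they are not independent measurements.

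**Figure D2:**
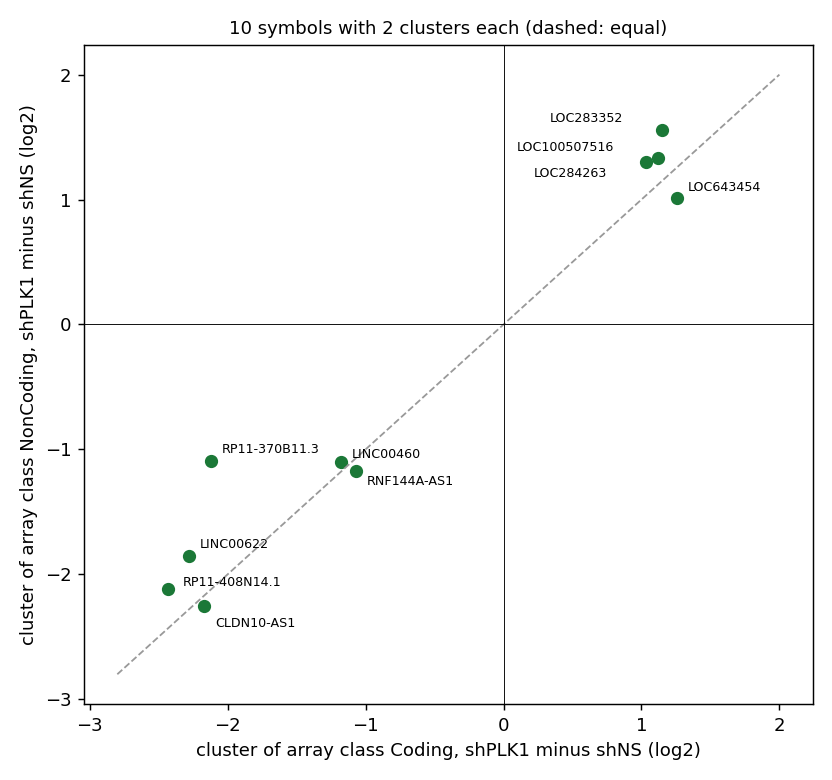
Difference of averages (shPLK1 minus shNS, log2) in the class Coding cluster (x axis) and the class NonCoding cluster (y axis) of the 10 symbols with both, each point 1 symbol, with the line of equality dashed. All 10 points lie in the quadrants where both clusters have the same sign, and RP11-370B11.3 lies farthest from the line.

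Several members stood beside a coding gene that is itself in the list. Of the 26 loci found in RefSeq, 5 had a listed gene as their nearest (at whatever distance) or overlapping neighbour, and each such gene differed in the same direction as the locus. Locus and neighbour both had to pass 2-fold to be listed, and 62.3% of the list was lower. The matching share for listed genes outside the members was not taken, so the count is not a trait of the members. MEOX2, a homeobox transcription factor, averaged 7.63 in shPLK1 and 9.93 in shNS beside MEOX2-AS1. ZNF697, a zinc finger gene, averaged 6.43 in shPLK1 and 7.71 in shNS beside LINC00622. In the RefSeq annotation (GRCh38.p14) MEOX2 lies 1.7 kb, ZNF697 20.1 kb and PDE2A 2.9 kb from its locus, while GDNF lies 308.4 kb and EYA1 295.0 kb away. GDNF, a neurotrophic factor, averaged 3.81 in shPLK1 and 4.99 in shNS. LOC101929745 had 4.31 in shPLK1 and 6.06 in shNS. PDE2A, a phosphodiesterase of cyclic nucleotides, averaged 7.47 in shPLK1 and 6.17 in shNS beside LOC101928555, which had 7.21 in shPLK1 and 6.14 in shNS. LOC100132891 has EYA1, a transcriptional coactivator, as a distant neighbour, with 5.54 in shPLK1 and 7.16 in shNS. It overlaps TRPA1, an ion channel, with 2.57 in shPLK1 and 3.67 in shNS. The clusters given for MEOX2, EYA1 and TRPA1 are of class Coding, and those for ZNF697, PDE2A and GDNF are of class NonCoding.

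The array's numbering was also used, for all members, whether or not RefSeq holds them. Within a chromosome and class the cluster numbers follow the genome along each strand: of 119 consecutive listed pairs with a RefSeq match on the same strand, 113 were in ascending order. Listed clusters within 3 numbers of each other, a distance chosen after the values were seen, formed 16 pairs with a member (LINC00622 and ZNF697, given above, among them), and in 16 of the 16 both clusters lay on the same side. Of the 49 such pairs without a member, many of them copies of the GAGE family, 44 did. LOC101927885 has the number next to TENM2, a teneurin of cell adhesion, which averaged 4.97 in shPLK1 and 7.63 in shNS. AL121578.2 stands beside SYTL5, a synaptotagmin-like protein of vesicle traffic, which averaged 5.07 in shPLK1 and 8.67 in shNS. RP11-316I3.2, with 3.95 in shPLK1 and 5.85 in shNS, stands beside PTGS2, the inducible cyclooxygenase, with 4.51 in shPLK1 and 8.0 in shNS.

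LOC284263 on chromosome 18 is numbered between SLC14A2 and SLC14A1, both urea transporters, and all of these were higher. SLC14A2 averaged 6.35 in shPLK1 and 5.29 in shNS, and SLC14A1 averaged 7.91 in shPLK1 and 6.50 in shNS. LOC284263 in class NonCoding averaged 4.34 in shPLK1 and 3.04 in shNS. LOC642929 and LOC644249 each stand near a cluster of ANKRD20A3, a member of a multi-copy ankyrin repeat family. These clusters of ANKRD20A3 averaged 4.81 in shPLK1 and 6.10 in shNS, and 3.51 in shPLK1 and 4.53 in shNS. Signals of near-identical copies may not be separable, and neighbouring clusters may belong to 1 transcript or to overlapping ones. Neither was tested, and strand handling is not given in the sources used here.

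**Figure D3:**
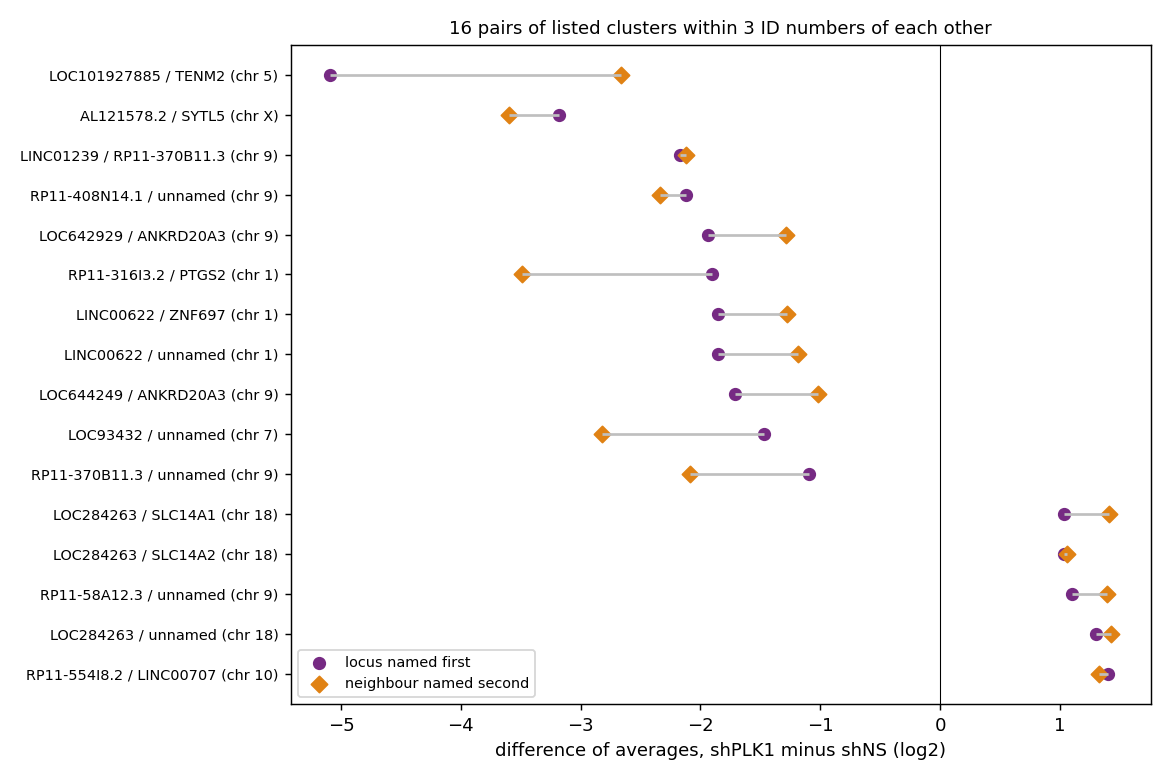
Difference of averages (shPLK1 minus shNS, log2) of the 16 pairs of listed clusters within 3 array numbers of each other that hold a member, with the member as a circle and its neighbour as a diamond. In each of the 16 pairs both marks lie on the same side of 0, and the gap is widest for LOC101927885 and TENM2.

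Members lay on 16 chromosomes. On chromosome 18 all 3 were higher, and so were 21 of the 24 other listed clusters there. On chromosome 13, 4 of 5 members were lower, against 11 of 18 other clusters, and on chromosome 9, 8 of 9, against 20 of 33. The exon probe sets of the array, which have a value for every sample, were therefore used to give the shift of each whole chromosome: per array, the median deviation of its probe sets (mean level 7 or more), less that of all chromosomes. On chromosome 18 this was 0.17, 0.18, 0.25 and 0.16 in the shPLK1 arrays, against -0.17, -0.19, -0.23 and -0.15 in the shNS arrays. The groups did not overlap, and the difference was 0.38 (SE 0.02, limma over 23 chromosomes, adjusted p = 1e-07). On chromosome 13 the arrays read -0.11, -0.16, -0.10 and -0.13 in shPLK1, against 0.12, 0.11, 0.11 and 0.15 in shNS. The difference there was -0.25 (SE 0.01, limma, adjusted p = 9.7e-08), again without overlap. Over probe sets of all levels both shifts kept their calls but were smaller, 0.17 on chromosome 18 and -0.12 on chromosome 13. Calls were not particular to these chromosomes. Chromosomes 1, 2, 3, 8, 12 and X also passed (limma, adjusted p under 0.05), while 5, 6, 7, 10, 11, 19 and 22 did not. On chromosome 1 the difference was -0.07 (limma, adjusted p = 9.1e-06), and 5 of 7 members were lower, against 28 of 39 other clusters. On chromosome 3 it was 0.045 (limma, adjusted p = 9.8e-05), and both members were lower.

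On chromosome 9 the shift was small and of the opposite sign to most members. The shPLK1 arrays read 0.0117, 0.0135, 0.0033 and 0.009, against -0.0078, -0.0166, -0.0056 and -0.0089 in the shNS arrays. The difference was 0.0191 (SE 0.0045, limma, adjusted p = 0.0045), and it did not pass at an adjusted p of 0.088 once probe sets of all levels were used. The shifts of chromosomes 9, 13 and 18 were all smaller than any member's difference. The list admits only differences past 2-fold, so this was fixed in advance and says nothing about the members. The part of a chromosome's shift in a member's difference was not tested. The knockdown and other differences between the shPLK1 and shNS lines cannot be told apart in these shifts. Over all 573909 exon probe sets, 1.99% were called higher and 2.2% lower (limma, adjusted p under 0.05), and no table pairing probe sets with the members was used here, so none of these calls could be given to a member.

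**Figure D4:**
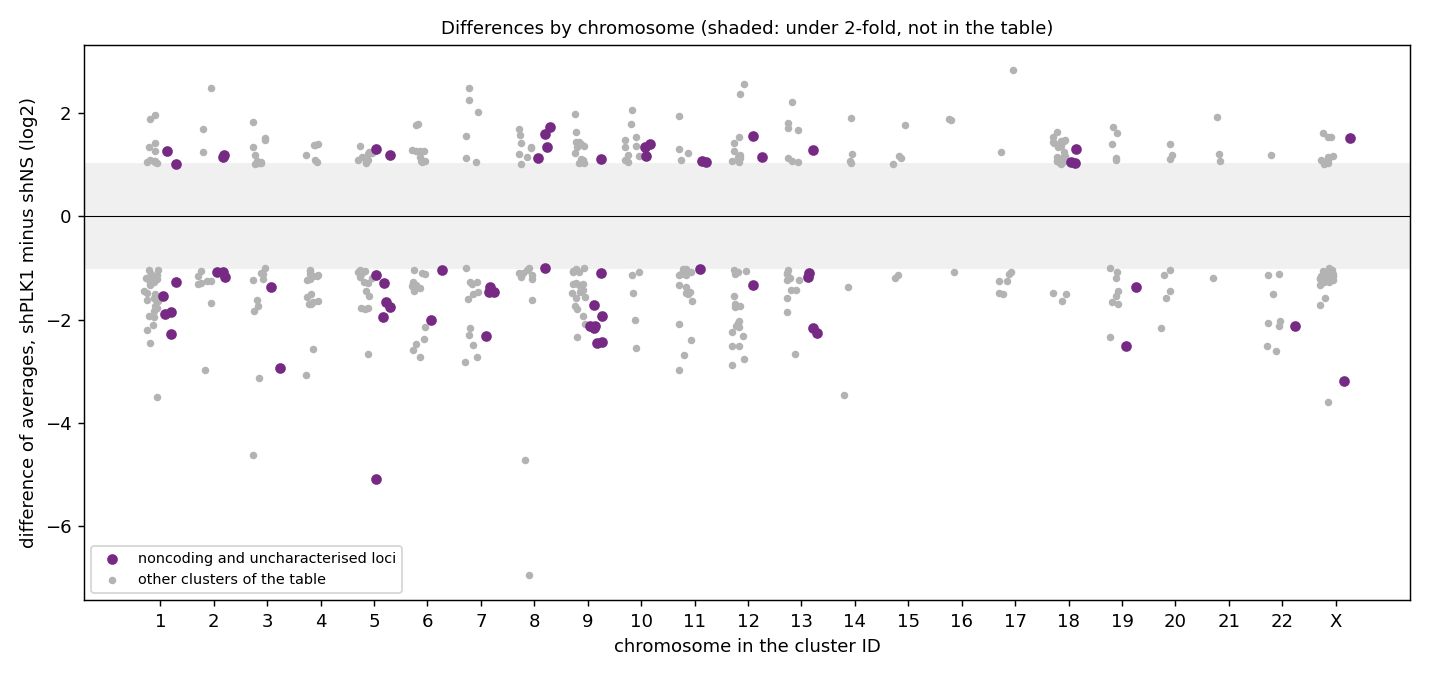
Difference of averages (shPLK1 minus shNS, log2, y axis) of the listed clusters by chromosome (x axis), members in purple and other clusters in grey, with the range under 2-fold shaded because the list holds no cluster there. Chromosome 9 carries 8 lower members and 1 higher, chromosome 10 carries 3 higher members and no lower one, and the lowest purple point, on chromosome 5, is LOC101927885.

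Cell identity could be checked only in part. Of 12 melanocyte-lineage markers 1, ERBB3, is in the list, and of 6 fibroblast, 5 keratinocyte and 4 immune markers 0 are. A marker that did not change is not listed, so absence from the list says nothing about its level.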

How the data were processed

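RNA of A375 cells with shPLK1 or shNS was hybridised to Affymetrix Human Transcriptome Arrays, 4 arrays per group by the labels, while the Methods and design text give triplicates without naming them. All 8 arrays were used, and the sources used here do not say whether equal numbers pair arrays across groups. The authors processed the scans by RMA (background correction, quantile normalization, summary of probes) in the Transcriptome Analysis Console and deposited log2 values per exon and junction probe set, without gene names. They also deposited a table of 491 clusters with the bi-weight log2 average of each group. Its columns of fold changes, p-values and FDR values are the authors' own comparison and were not used. The genome build of the array annotation is not given in the sources used here.

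The difference of the 2 averages was taken per cluster, with the chromosome from the cluster ID and with names, neighbours and promoter windows from RefSeq (GRCh38.p14). Values were given for the 12 highest and 12 lowest members, symbols with 2 clusters, antisense members, the 3 members nearest the limit on each side and members on the list of studied RNAs, and further members were named after their values were seen. limma (3.58.1, R 4.3.3, data.table in version 1.17.8) was fitted with group only to 573909 exon probe sets and to chromosome shifts, with Benjamini-Hochberg adjustment, and was tested on simulated data. The p-values measure the spread between arrays of the same shPLK1 line and the same shNS line, as the Methods describe replicates of each cell line. Correlations between arrays were 0.9864 to 0.9913 within and 0.9792 to 0.9852 between groups. A planned test of the members' probe sets was not run, as no table pairing them was used here. Members and lists were chosen with earlier results of these data known. The alternatives were a minimum level, 1 cluster per symbol, name kinds left out, other probe set filters, a replicate block and each array left out. Further ones were limma's trend and robust options and, for the shifts, the mean over probe sets.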

Additional observations from a re-analysis of the deposited data

How the results depend on the processing

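The members' direction was fixed by the list, so alternatives bear on counts. With a higher group average of at least 6, 9 members were higher and 25 lower. Without LOC symbols 14 were higher and 31 lower. With 1 cluster per symbol 19 were higher and 35 lower. The split of the whole list under the same settings was not taken, so these counts cannot be set beside it. The chromosome 9 shift lost its call over exon probe sets of all levels (0.008, limma adjusted p = 0.088) and with the mean over probe sets (0.0088, adjusted p = 0.2). Over all levels the shift was 0.17 on chromosome 18 and -0.12 on chromosome 13, which kept their calls. Leaving out each array in turn gave 8140 to 9614 exon probe sets higher and 9800 to 11198 lower, and shifts of 0.0168 to 0.0211 (chromosome 9), -0.26 to -0.24 (chromosome 13) and 0.36 to 0.39 (chromosome 18). With the replicate number as a block, 8077 exon probe sets were higher and 9161 lower, and the shifts kept their calls (chromosome 9 adjusted p = 0.038). Deviations of same-numbered arrays correlated at -0.37 to 0.20, and 1 of 8 arrays correlated best with its own number. So few arrays cannot decide whether equal numbers share a culture or a batch. Of the alternative values, 72 were counts or medians within a set tolerance of the main value or shifts that kept their sign and call. None reversed. The tolerance was wide: it took in exon probe set counts of 8077 to 14654 higher and 9161 to 16351 lower, against 11422 and 12624 in the main fit. The largest counts came with limma's trend and robust options. The values that moved were counts of members under settings that left members out. Signal over background was not measured for clusters. A lower average under 4 was found in 20 of 64 members, against 109 of 491 clusters in the list.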
